A study of Mus musculus with 4 samples.

Results

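The genes described here make reactive oxygen and nitrogen species at the gut epithelium. They are the dual oxidases Duox1 and Duox2 with their maturation factors Duoxa1 and Duoxa2, the NADPH oxidase Nox1 with its organizer Noxo1, its activator Noxa1 and the membrane subunit Cyba, the inducible nitric oxide synthase Nos2, and Gpx2, a glutathione peroxidase of the digestive tract that removes hydrogen peroxide. A gene was taken up where a probe set of the array was annotated with that symbol alone. All 10 genes were found among the 19938 genes named on the array, each with 1 probe set. The values are log2 expression values from single-colour Affymetrix arrays of total small intestinal RNA of C57BL/6 mice. The CFLARs Tg group, which carried a transgene for CFLARs, the short form of the caspase-8 regulator cFLIP, had 2 arrays, titled XCFX (replicate 1) and XCFY (replicate 2). The wild-type group had 2 arrays as well, titled XX (replicate 1) and XY (replicate 2). No treatment was named for either genotype. The age of the mice, the stretch of small intestine, the promoter that drives the transgene, its copy number and the number of animals behind an array are not stated in the labels. The p-values therefore measure the spread between these arrays, which may be technical in part. The series title concerns necroptosis of intestinal epithelial cells and ileitis in preterm mice, and the comparison of genotypes asks how the intestinal transcriptome differs between them.

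Dual oxidases sit in the apical membrane of epithelial cells and release hydrogen peroxide into the lumen, where it limits contact with bacteria. Each needs its own maturation factor to leave the endoplasmic reticulum, and each oxidase gene lies head to head with the gene of that factor. Nox1 makes superoxide, with Cyba as its membrane partner and Noxo1 and Noxa1 as cytosolic regulators, and is best known from the colon. Nos2 makes nitric oxide from arginine and is induced by cytokines in epithelial cells and in macrophages.

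The 4 dual oxidase genes lie together on chromosome 2 (GRCm38.p6). In the RefSeq table, Duox2 runs from 122279246 to 122298740, Duoxa2 from 122298900 to 122302885, Duoxa1 from 122303540 to 122313763 and Duox1 from 122313010 to 122347972. The listed spans of Duoxa1 and Duox1 overlap. The RefSeq start sites used for the windows of Duox2 and Duoxa2, on opposite strands, are 673 bases apart, and those of Duoxa1 and Duox1 are 1942 bases apart. The starts used for Duox2 (122298227), Duoxa1 (122313730) and Duox1 (122315672) lie inside the listed spans, so the outer ends of the spans are at other distances. The windows of Duox2 and Duox1 do not reach those outer ends. The promoter windows of these 4 genes are shown because the Duox2 and Duoxa2 probe sets gave large differences between the genotypes and those of their neighbours did not (values below). Each window holds 250 bases before and 50 bases from the RefSeq start, 5′ to 3′ on the strand of the gene, and capitals mark matches to the motifs searched.
Duox2, chr2:122298178-122298477, minus strand: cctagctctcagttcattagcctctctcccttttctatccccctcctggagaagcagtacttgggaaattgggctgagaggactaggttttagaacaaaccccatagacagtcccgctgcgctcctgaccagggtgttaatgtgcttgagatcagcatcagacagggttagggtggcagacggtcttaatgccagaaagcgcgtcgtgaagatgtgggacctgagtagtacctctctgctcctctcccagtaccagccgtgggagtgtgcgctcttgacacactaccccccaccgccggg
Duoxa2, chr2:122298650-122298949, plus strand: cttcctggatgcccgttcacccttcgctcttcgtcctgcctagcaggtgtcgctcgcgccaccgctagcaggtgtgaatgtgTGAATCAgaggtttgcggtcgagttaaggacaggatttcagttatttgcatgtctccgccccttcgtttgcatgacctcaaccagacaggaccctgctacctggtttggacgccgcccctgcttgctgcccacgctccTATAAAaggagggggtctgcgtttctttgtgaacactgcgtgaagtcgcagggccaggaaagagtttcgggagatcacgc
Duoxa1, chr2:122313681-122313980, minus strand: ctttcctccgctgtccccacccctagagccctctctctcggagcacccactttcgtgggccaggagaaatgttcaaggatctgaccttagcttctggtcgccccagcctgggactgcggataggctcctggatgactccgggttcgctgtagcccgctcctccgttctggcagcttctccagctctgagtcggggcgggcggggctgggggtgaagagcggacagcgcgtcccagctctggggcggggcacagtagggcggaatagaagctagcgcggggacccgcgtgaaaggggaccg
Duox1, chr2:122315422-122315721, plus strand: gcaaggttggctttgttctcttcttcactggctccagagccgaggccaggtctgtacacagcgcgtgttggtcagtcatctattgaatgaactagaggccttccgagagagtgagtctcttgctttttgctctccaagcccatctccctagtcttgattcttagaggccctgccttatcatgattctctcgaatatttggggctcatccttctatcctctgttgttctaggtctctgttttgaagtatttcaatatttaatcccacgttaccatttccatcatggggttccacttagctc
The motifs searched on both strands were TTCNNNGAA for STAT factors, found in 8.3% of all 32851 windows of this length, TGANTCA for AP-1, in 7.81%, and TATAAA for the TATA box, in 13.6%. An interferon-responsive element (3.44% of windows) was searched as well, and so was a single fixed NF-kB sequence without variable positions (0.155%). NF-kB sites that differ from that sequence were not searched. The matches of different motifs did not overlap. The Duoxa2 window held a TATA match that begins 30 bases before the start. It also held a match to the AP-1 letters, TGAATCA, that begins 168 bases before the start. The central base of this match is A, which the search allowed because N stands for any base. Whether AP-1 factors bind a site with A there was not tested. The windows of Duox2, Duoxa1 and Duox1 held none of the 5 motifs, and neither did those of Nox1, Noxo1, Noxa1, Cyba and Gpx2. The Nox1 window also lies inside the listed span of its gene. Sequence outside the windows, such as that at other starts, was not searched. RefSeq windows were matched for 9 of the 10 genes, and Nos2 is named only.

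The array medians lay between 8.31 and 8.33 over 28856 probe sets, and no 2 arrays shared more than 33 identical values, so no array was a duplicate. The readings of Xist, Kdm5d, Uty and Eif2s3y followed the XX and XY notation of the titles, at 9.08 to 12.9 where the gene should be expressed and at 5.13 to 6.78 where it should not. The range of 5.13 to 6.78 serves as a scale for background. All 8 epithelial markers and most small intestinal ones read far above it: Apoa4, an enterocyte apolipoprotein, gave 14.15 and 13.89 in CFLARs Tg, against 14.30 and 14.29 in wild-type. The lowest were Sis, sucrase-isomaltase, with 7.15 and 7.08 in CFLARs Tg, against 7.60 and 7.67 in wild-type, and the bile acid transporter gene Slc10a2, with 8.02 and 8.49 in CFLARs Tg, against 7.31 and 7.38 in wild-type. Genes often used as colon markers were also above background, with Aqp8 at 9.82 and 10.22 in CFLARs Tg and 10.26 and 10.44 in wild-type. Cflar itself did not check the labels, since the part of the transgene that its probe sets match is not known here. The test left out the 30% of genes that read lowest on average, which removed Duox1 and kept 9 of the 10 genes.

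In CFLARs Tg intestine, Nos2, Duox2, Duoxa2 and Gpx2 rose, by 11.6-fold, 11.0-fold, 7.77-fold and 4.09-fold. These are 4 of the 9 genes tested, and 0 fell. Over all 13957 genes tested, 8.44% rose and 10.9% fell (limma, adjusted p under 0.05). In the fit without a filter the same 4 of the 10 genes rose, where 5.31% of all 19938 genes rose. On all 10 probe sets both CFLARs Tg arrays read above both wild-type arrays, a pattern shown by 32.0% of all genes tested. Before adjustment, 7 of the 9 tested had a p under 0.05, against 39.1% of all genes. The median difference of the 10 genes was 0.76 on the log2 scale, against -0.01 over all genes tested. The differences came in distinct sizes within the set: the 4 genes that rose differed by 2.03 or more, and the other 6 by 0.99 or less.

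**Figure D1:**
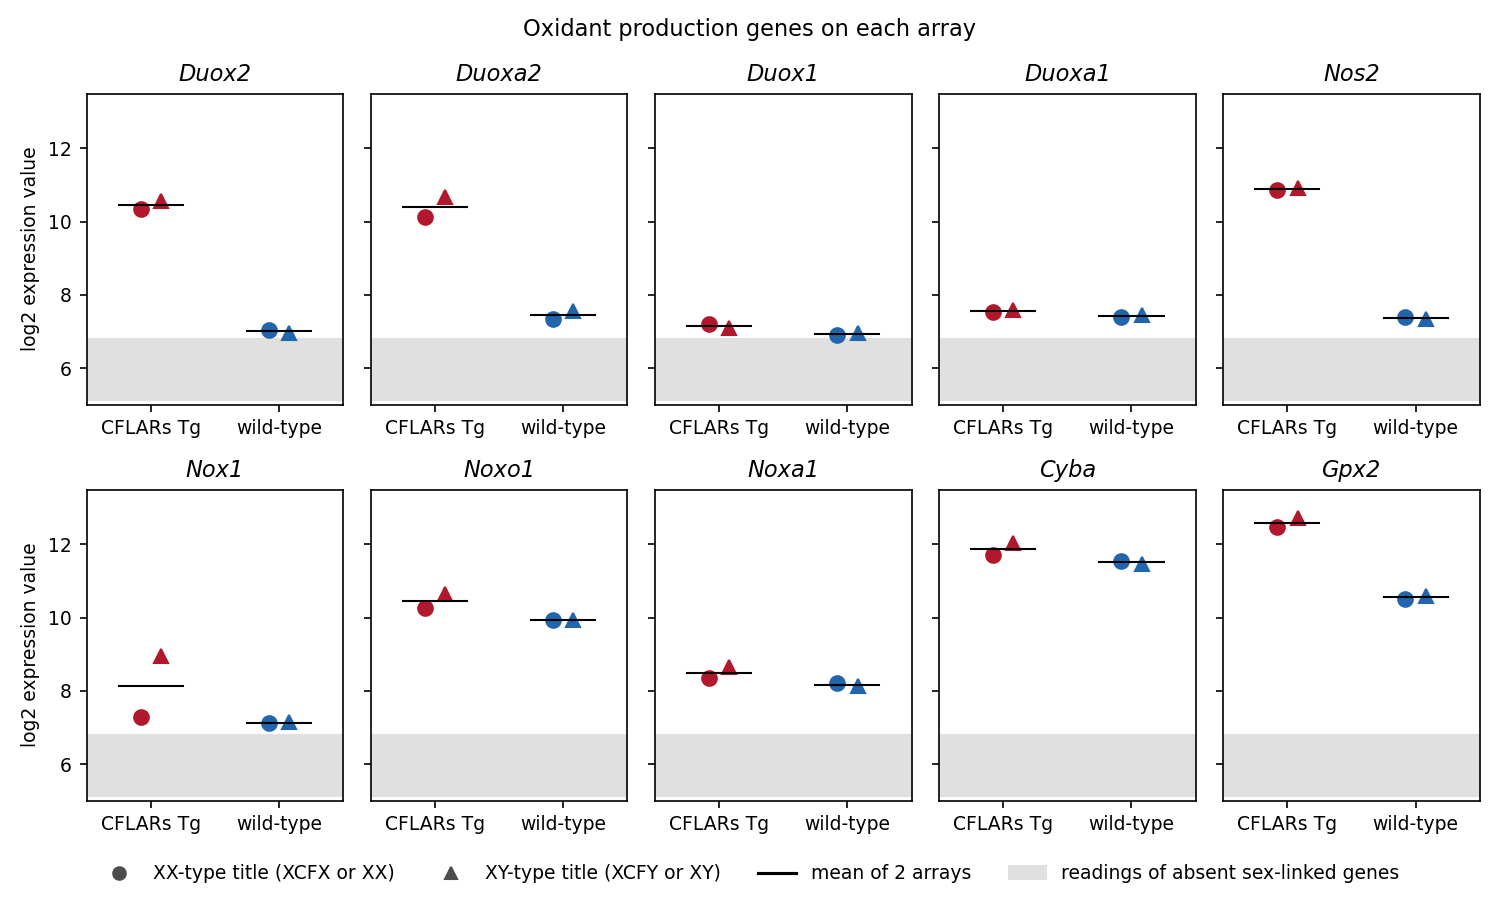
Deposited log2 expression value (vertical axis) of each oxidant production gene in CFLARs Tg and wild-type arrays. Circles are XX-type and triangles XY-type titles, lines are means of 2 arrays, and the grey band spans the readings of sex-linked genes in arrays that should lack them (5.13 to 6.78). Duox2, Duoxa2, Nos2 and Gpx2 are far higher on both CFLARs Tg arrays, and Nox1 is high on the XCFY array alone.

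Of the dual oxidases, Duox2 read 10.34 and 10.57 in CFLARs Tg (XCFX and XCFY), against 7.04 and 6.96 in wild-type (XX and XY). Its wild-type readings lay just above the range of background, and the groups did not overlap. The log2 difference was 3.46 (SE 0.10, limma adjusted p = 0.001005), the tenth largest rise among the genes tested by size of the difference. At wild-type readings this near background, a fold can understate the difference in RNA.

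Its maturation factor Duoxa2 moved with it. Duoxa2 read 10.12 and 10.67 in CFLARs Tg and 7.33 and 7.55 in wild-type. The difference was 2.96 (SE 0.20, adjusted p = 0.00904), and the 2 CFLARs Tg arrays lay 0.55 apart, less than the distance to either wild-type array. Without wild-type replicate 1 the difference was 2.85 and without replicate 2 it was 3.07, and the call was lost in both cases (adjusted p = 0.0579 and 0.0515). Fits that lack a wild-type array call few genes: 0.244% and 0.265% of all genes rose without replicate 1 and without replicate 2, and 0.0573% and 0.0215% fell. With any single array left out the differences were 3.34 to 3.57 for Duox2, 3.50 to 3.57 for Nos2 and 1.91 to 2.15 for Gpx2. A fit with 1 array in a group takes its spread from the other group alone.

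The neighbouring pair on chromosome 2 differed far less between the genotypes, and neither gene passed a test. Duox1 read 7.19 and 7.08 in CFLARs Tg and 6.89 and 6.96 in wild-type. These readings were near background in both genotypes and below the limit for testing. In the fit of all 19938 genes, where 5.31% rose and 6.7% fell, its difference was 0.21 (SE 0.07, adjusted p = 0.122). Duoxa1 read 7.52 and 7.58 in CFLARs Tg, against 7.40 and 7.46 in wild-type, a difference of 0.12 (SE 0.06, adjusted p = 0.215). The Duoxa1 probe set lay just inside the limit, with a mean of 7.49 against a limit of 7.48. Probe sequences were not used here, so the specificity of the Duox1 and Duox2 probe sets for either paralog was not examined, and the contrast between the pairs of genes was not tested.

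Nos2 had the smallest SE of the 4 genes that rose. It read 10.87 and 10.93 in CFLARs Tg and 7.40 and 7.33 in wild-type. Both CFLARs Tg arrays lay within 0.06 of each other and over 3 log2 units above wild-type. The difference was 3.53 (SE 0.06, adjusted p = 0.000615), the eighth largest rise among the genes tested. Leaving out any single array kept it between 3.50 and 3.57.

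The Nox1 system differed less, and unevenly between the arrays. Nox1, the catalytic subunit, gave 7.30 on XCFX and 8.94 on XCFY, against 7.11 and 7.15 in wild-type. The XCFX reading was close to wild-type and the XCFY reading was 3.47 times that of the XY array, so the mean difference of 0.99 (SE 0.54, adjusted p = 0.246) describes neither. The gap of 1.64 between the CFLARs Tg arrays was exceeded by 18 of the 13957 genes tested. Nox1 lies on the X chromosome, and its wild-type readings, from an XX and an XY array, were 0.03 apart and near background. The part of title type in the gap was not tested. Without CFLARs Tg replicate 1 the difference was 1.81, and without replicate 2 it was 0.17. Each of these fits rests on 1 CFLARs Tg array, so neither sets the difference against the spread within that group.

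The partners of Nox1 showed a smaller form of the same order. Noxo1, which organizes the complex at the membrane, read 10.27 and 10.65 in CFLARs Tg, against 9.93 and 9.94 in wild-type, a difference of 0.53 (SE 0.13, adjusted p = 0.0577). It passed with title type (XX or XY) as a block (adjusted p = 0.0289). That fit called 22.2% of all genes in either direction, and 1402 of all 13957 genes rose in it. Noxa1, which activates the enzyme, read 8.34 and 8.65 in CFLARs Tg and 8.20 and 8.14 in wild-type (difference 0.33, SE 0.12, adjusted p = 0.114). Cyba, the membrane subunit that stabilizes Nox1 and the phagocyte oxidase, read 11.72 and 12.04 in CFLARs Tg and 11.56 and 11.45 in wild-type (difference 0.37, SE 0.12, adjusted p = 0.0955). In each of the 4 genes of this system the XCFY array gave the highest of the 4 readings. Without CFLARs Tg replicate 1 all 4 passed the test, with differences of 1.81, 0.71, 0.48 and 0.53 for Nox1, Noxo1, Noxa1 and Cyba, in a fit where 22.3% of all genes rose. Without replicate 2, only Noxo1 of these 4 passed, with 0.34 (adjusted p = 0.00987), and 14.0% of all genes rose.

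Gpx2, on the side of peroxide removal, read 12.47 and 12.71 in CFLARs Tg and 10.51 and 10.60 in wild-type. The groups lay far apart and each was tight. The difference was 2.03 (SE 0.10, adjusted p = 0.00445). Without wild-type replicate 1 or 2 its adjusted p was 0.0467 and 0.0442, close to the threshold.

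**Figure D2:**
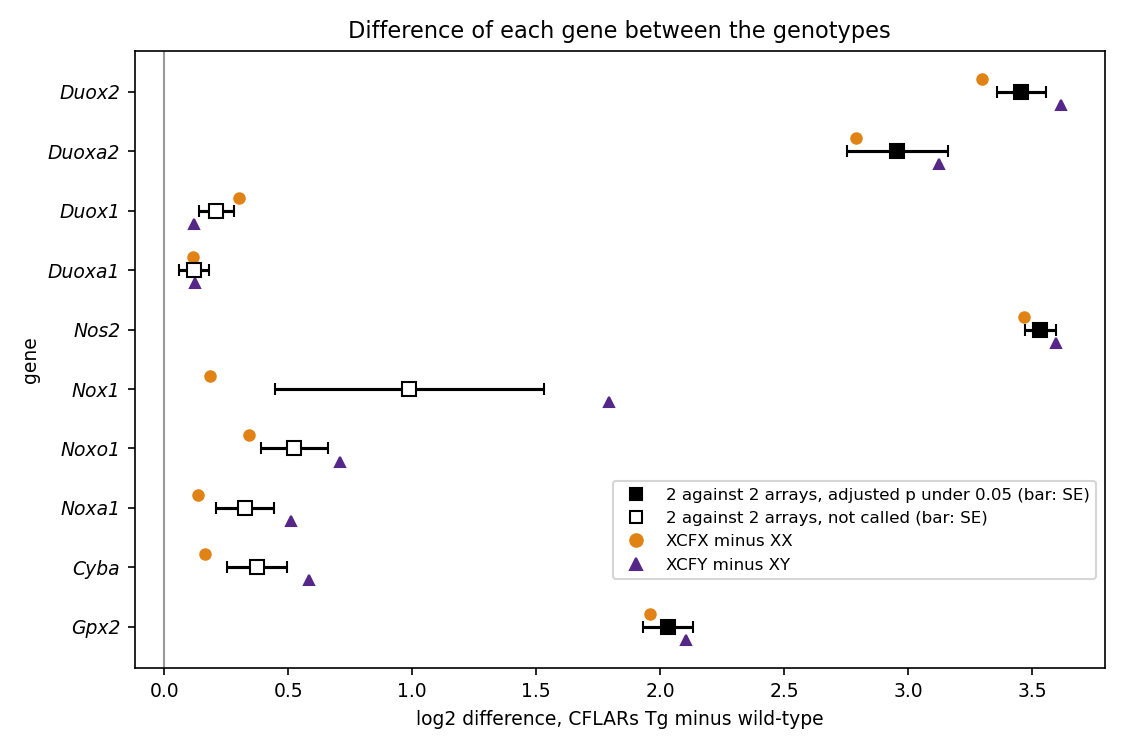
Log2 difference, CFLARs Tg minus wild-type (horizontal axis), of each gene. Squares are the difference of 2 against 2 arrays with its SE, filled where the limma adjusted p was under 0.05, circles are XCFX minus XX and triangles XCFY minus XY; the Duox1 value is from the fit without a filter. Nos2, Duox2, Duoxa2 and Gpx2 stand at 2.03 to 3.53, and the circle and triangle of Nox1 lie far apart.

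Within each title type, where 1 array stands against 1 and no test is possible, all 10 genes were higher in CFLARs Tg. XCFX minus XX was 3.30 for Duox2, 2.79 for Duoxa2, 3.47 for Nos2 and 1.96 for Gpx2. XCFY minus XY was 3.62 for Duox2, 3.12 for Duoxa2, 3.60 for Nos2 and 2.11 for Gpx2. The difference of the XY-type pair was the larger in 9 of the 10 genes and in 53.5% of all genes tested, the exception among the 10 being Duox1 (0.30 in the XX-type and 0.12 in the XY-type pair). For the 4 genes that rose the pairs were within 0.33 log2 units of each other, and for Nox1 they were 0.18 and 1.79.

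**Figure D3:**
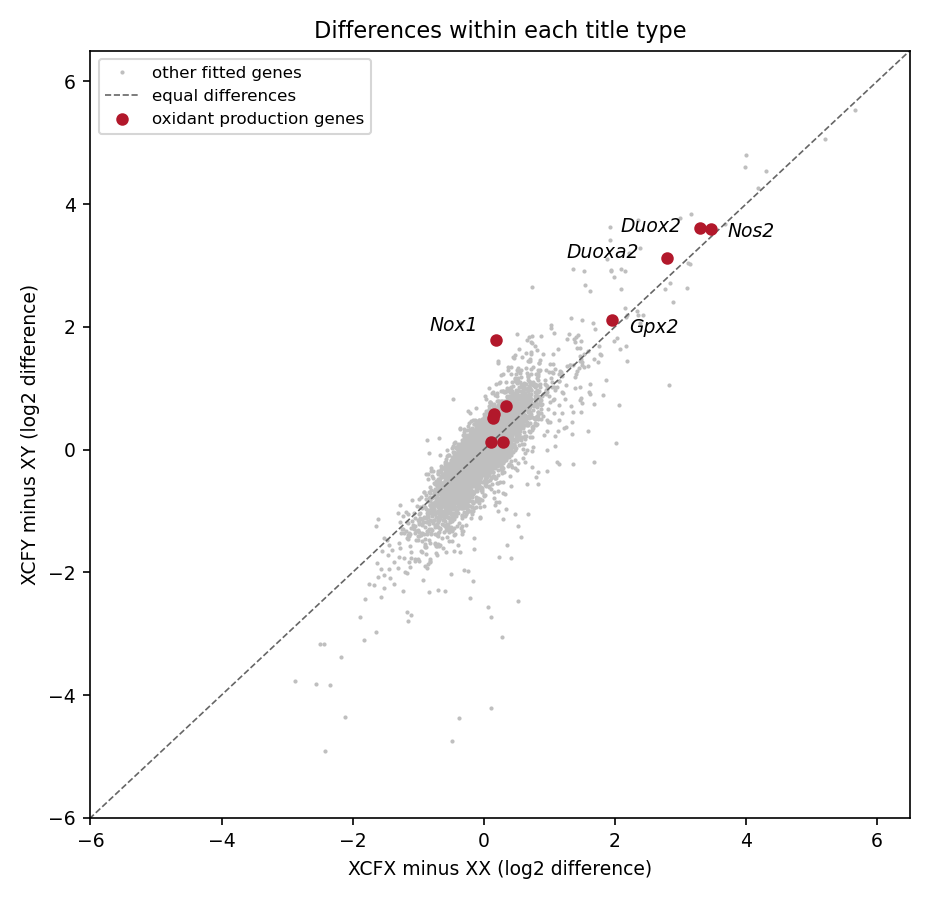
Difference of XCFX minus XX (horizontal axis) against XCFY minus XY (vertical axis), both log2, for all genes tested (grey) and the 10 oxidant production genes (red, Duox1 included). The dashed line marks equal differences. Duox2, Duoxa2, Nos2 and Gpx2 lie near it at the upper right, and Nox1 lies above it at 0.18 and 1.79.

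The genes nearest to Duox2 in their profile over the 4 arrays were, by the root mean square difference of values centred on the mean of each gene, Nos2 (0.07 log2 units), the gasdermin gene Gsdmc2 (0.10), the chemokine gene Cxcl9 (0.20), the tryptophan-degrading enzyme gene Ido1 (0.22) and the chemokine gene Ccl20 (0.22). The nearest to Nos2 were Duox2 and the same 4 genes. Duoxa2 was sixth from Duox2 (0.29), while the nearest to Duoxa2 were Lilr4b (0.19), an inhibitory receptor gene of myeloid cells, then Ido1, Ccl20, Sprr1a and S100a9 (0.20 to 0.26). With 4 arrays this measure mostly reflects the size of the difference between genotypes. Gsdmc2 read 11.33 and 11.66 in CFLARs Tg and 8.16 and 7.82 in wild-type. For Nox1, added after its values were seen, the nearest were 1810065E05Rik (0.17), Tlr13 (0.19), Lyz1 (0.20), Emb (0.20) and the neutrophil granule gene Ngp (0.21).

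Genes of other parts of oxidant chemistry were read from lists of related genes. The phagocyte oxidase, which shares Cyba with Nox1, had 4 of 5 genes on the array (Cybb, Ncf1, Ncf4 and Rac2). All 4 read higher on both CFLARs Tg arrays, a pattern shown by 32.0% of all genes tested. All 4 had an unadjusted p under 0.05 (limma), against 39.1% of all genes tested. After adjustment 1 of the 4 rose and 0 fell, where 8.44% of all genes rose and 10.9% fell. The median difference was 0.78. With title type as a block all 4 rose, in a fit where 1402 of all 13957 genes rose. Without CFLARs Tg replicate 1 the median was 1.10 and without replicate 2 it was 0.46. Ncf1, its organizer and the counterpart of Noxo1, read 8.62 and 9.17 in CFLARs Tg, against 7.95 and 7.97 in wild-type (difference 0.94, SE 0.19, adjusted p = 0.0368). Of the other NADPH oxidase genes and their shared GTPases, 0 of 3 tested passed (limma), with an unadjusted p under 0.05 for 1 of them. Nox4, a constitutively active oxidase, read 10.10 and 9.19 in CFLARs Tg and 10.75 and 10.63 in wild-type (difference -1.04, SE 0.31, adjusted p = 0.0772), and passed with title type as a block (adjusted p = 0.0226). Rac1, a GTPase of the Nox1 complex, differed by 0.16 (SE 0.06, adjusted p = 0.137).

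Genes that supply or compete with nitric oxide synthase went both ways. Of 13 tested, 3 rose and 2 fell, and the median difference was -0.06. The arginase genes Arg1 and Arg2, which compete for arginine, lay below the limit for testing. Both read higher on both CFLARs Tg arrays, with differences of 0.93 and 0.56, and did not pass in the fit without a filter (adjusted p = 0.0885 and 0.0721, limma). Ass1 was not among the genes named on the array. Slc7a1, a transporter of the Nos2 substrate arginine, read 10.16 and 10.23 in CFLARs Tg and 9.32 and 9.48 in wild-type (difference 0.79, SE 0.08, adjusted p = 0.0169). Gch1, the first enzyme in the synthesis of the Nos2 cofactor tetrahydrobiopterin, read 9.79 and 9.31 in CFLARs Tg and 8.81 and 8.85 in wild-type (difference 0.72, SE 0.17, adjusted p = 0.0494). The call of Gch1 was lost without a filter and after quantile normalization or median centring (adjusted p = 0.0551, 0.0533 and 0.0542). Further along this route the order was the opposite: Pts, the next enzyme, fell by 0.36, and Qdpr, which recycles the cofactor, fell by 0.55 (adjusted p = 0.0286 and 0.0328). Odc1, which makes polyamines from the arginase product ornithine, rose by 0.63 (SE 0.12, adjusted p = 0.0336). Neither these 5 calls nor that of Ncf1 held when a wild-type array was left out. The constitutive synthase Nos3 differed by -0.04 (SE 0.06) and Nos1 by -0.24 (SE 0.09), both named after their values were seen, and neither passed (adjusted p = 0.706 and 0.126).

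Other enzymes that remove peroxide and superoxide did not pass the test: 0 of 13 rose or fell (limma), with an unadjusted p under 0.05 for 5 of them and for 39.1% of all genes tested. Their median difference was 0.02. Of the other glutathione peroxidases, Gpx1 differed by 0.00 (SE 0.07), Gpx3 by -0.33 (SE 0.11) and Gpx4 by -0.31 (SE 0.12), named beside Gpx2 after their values were seen. Catalase (Cat) read 12.29 and 11.77 in CFLARs Tg and 12.72 and 12.76 in wild-type (difference -0.71, SE 0.18, adjusted p = 0.0585). Prdx1, a peroxiredoxin gene, differed by 0.36 (SE 0.10, adjusted p = 0.0703). Both passed with title type as a block (adjusted p = 0.0281 and 0.0447), and Prdx1 also with the mean of all probe sets of a gene (0.34, adjusted p = 0.0482). Of the haem peroxidases that consume hydrogen peroxide, Lpo, Mpo and Epx fell below the limit for testing, and Pxdn differed by -0.04 (SE 0.08, adjusted p = 0.732).

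Targets of NRF2, the transcription factor that answers oxidative stress and has Gpx2 among its targets, also split. Of 14 tested, 3 rose and 1 fell, and the median difference was 0.07. The largest difference was that of Slc7a11, the cystine transporter gene, named after its values were seen and below the limit for testing. It read 7.88 and 8.90 in CFLARs Tg, against 6.31 and 6.43 in wild-type (within the range of background), and its difference of 2.01 passed in the fit without a filter (adjusted p = 0.03004). Gsr, which regenerates the glutathione that Gpx2 consumes, read 11.94 and 11.91 in CFLARs Tg and 10.80 and 10.79 in wild-type (difference 1.13, SE 0.05, adjusted p = 0.00437). Txnrd1, thioredoxin reductase, rose by 0.44, and Pgd, which makes NADPH, by 0.36 (adjusted p = 0.0196 and 0.0309). Gclm, a subunit of the enzyme that starts glutathione synthesis, read 11.37 and 10.90 in CFLARs Tg and 12.05 and 12.04 in wild-type. Gclm fell by 0.92 (SE 0.16, adjusted p = 0.0307). Gclc, the other subunit, named after its values were seen, went the other way. It read 11.23 and 10.33 in CFLARs Tg, against 9.88 and 9.88 in wild-type. Its difference of 0.90 (SE 0.30) did not pass (limma adjusted p = 0.101). None of the 4 calls held when a wild-type array was left out. Hmox1, heme oxygenase, named after its value was seen, read 12.10 in XCFX and 10.34 in XCFY, against 9.27 and 9.28 in wild-type. Here XCFX was the higher of the CFLARs Tg arrays, the reverse of Nox1, and the difference of 1.94 (SE 0.58) did not pass (adjusted p = 0.0793), but did with title type as a block (adjusted p = 0.0280).

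Among signals known to induce Duox2 or Nos2, 7 of 15 tested rose and 1 fell, with a median difference of 0.32. The cytokine gene Il1b read 9.11 and 10.09 in CFLARs Tg, against 7.02 and 7.15 in wild-type (difference 2.51, SE 0.33, adjusted p = 0.0208). Tnf read 8.24 and 8.42 in CFLARs Tg, against 7.05 and 7.22 in wild-type (difference 1.20, SE 0.10, adjusted p = 0.0133). Both cytokine genes were higher on every CFLARs Tg array. Hif1a, a transcription factor of the hypoxia response, rose by 0.68, Nfkbiz, an NF-kB cofactor, by 0.50 and Stat3, which carries the signal of the interleukin-22 receptor, by 0.35 (adjusted p = 0.0162, 0.0196 and 0.0318). Il10rb, a subunit of that receptor, fell by 0.60 (SE 0.12, adjusted p = 0.0350). As in the other lists, none of these 6 calls held when a wild-type array was left out. Il6, Ifng, Il17a and Tlr4 lay below the limit for testing. These lists were drawn up with results of these arrays known, so their counts are a description.

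**Figure D4:**
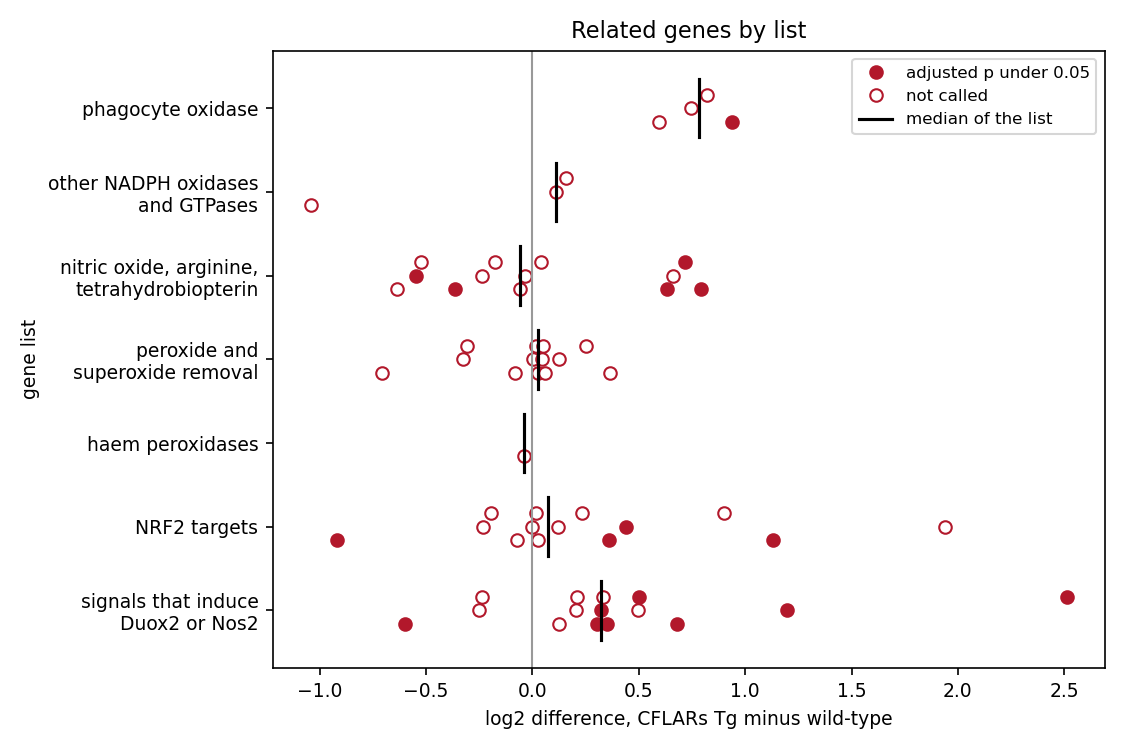
Log2 difference, CFLARs Tg minus wild-type (horizontal axis), of each tested gene in 7 lists of related genes, filled where the limma adjusted p was under 0.05. Vertical bars are list medians. The phagocyte oxidase genes lie together at 0.59 to 0.94, and the peroxide removal list holds no filled point.

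Among tested markers of cells other than the epithelium, those of neutrophils had the largest median difference, 2.15, against 0.34 for those of monocytes and macrophages. The limit for testing favours markers that are high in 1 genotype. Over all 12 neutrophil markers the median was 1.92, and over all 13 of monocytes and macrophages it was 0.34. The neutrophil markers below the limit ran from -0.03 (Camp) to 2.13 (Mmp8). In whole tissue, a change in the number of cells of a type and a change in RNA per cell cannot be told apart. Of 7 tested neutrophil markers 6 rose, and the mean log2 level of all 12 was 8.05 in XCFX and 9.09 in XCFY, against 6.93 and 7.03 in wild-type. None of the 6 passed without a wild-type array, and 5 of 12 rose in the fit without a filter. The granule gene S100a9 read 9.36 and 10.57 in CFLARs Tg, against 7.15 and 7.36 in wild-type. The neutrophil progenitor markers Elane and Mpo were below the limit for testing. Of 12 tested monocyte and macrophage markers 0 passed (limma), with an unadjusted p under 0.05 for 6 and for 39.1% of all genes tested. On 9 of the 12 both CFLARs Tg arrays read above both wild-type arrays, a pattern shown by 32.0% of all genes tested. With title type as a block 6 of the 12 rose, in a fit where 1402 of all 13957 genes rose. The mean level of all 13 was 9.13 and 9.66 in CFLARs Tg and 8.87 and 8.91 in wild-type. Both lists were highest in XCFY. Of the 10 oxidant genes 9 read higher in XCFY than in XCFX, as did 51.1% of all genes tested. XCFY read above XCFX by 0.06 for Nos2, 0.23 for Duox2, 0.24 for Gpx2 and 0.55 for Duoxa2, and by 0.31 for Noxa1, 0.32 for Cyba, 0.37 for Noxo1 and 1.64 for Nox1. The part of these cells in the values of the oxidant genes was not tested.

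Epithelial and colon markers moved too. Of 8 epithelial markers 3 rose, the keratin genes Krt20 by 1.35, Krt18 by 0.64 and Krt8 by 0.33, and 0 fell. Their mean level was 12.51 and 12.41 in CFLARs Tg and 12.06 and 12.10 in wild-type. Of 6 tested colon markers, Car4, a carbonic anhydrase gene, read 9.69 and 9.71 in CFLARs Tg and 7.51 and 7.51 in wild-type (difference 2.19, SE 0.05, adjusted p = 0.000853), and the anion exchanger gene Slc26a3 fell by 1.05 (SE 0.23, adjusted p = 0.0415). Car1 read 9.58 and 10.96 in CFLARs Tg and 8.80 and 9.27 in wild-type (difference 1.24, SE 0.48, adjusted p = 0.133), with the XCFY array highest, and passed with title type as a block (adjusted p = 0.0198). The colon list as a whole averaged 9.61 and 9.65 in CFLARs Tg and 9.27 and 9.47 in wild-type. Of 9 small intestinal markers 1 rose, Slc10a2 (by 0.91), and 0 fell, though the median difference was -0.52. On 7 of the 9 both CFLARs Tg arrays read below both wild-type arrays, a pattern shown by 37.6% of all genes tested. Sis, with a difference of -0.52, fell in the fit without a filter (adjusted p = 0.0204). Whether the sampled stretch of intestine differed between the arrays was not tested. Of 5 tested endothelial markers 2 fell, Kdr and Tek by 0.30 and 0.29 (named after their values were seen), and 0 of 7 fibroblast and smooth muscle and 0 of 2 lymphocyte markers passed (limma), with an unadjusted p under 0.05 for 1 and 0 of them. Of the epithelial, small intestinal, colon and endothelial calls, only that of Car4 held when a wild-type array was left out, and the endothelial calls were lost without a filter.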

How the data were processed

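The authors deposited log2 expression values for 28856 probe sets on 4 Affymetrix arrays. Per the labels' protocols, biotinylated cRNA was made from total RNA. No label states how the values were summarised or normalized, and they were used as deposited. Genes were named from the platform annotation (21789 probe sets with 1 symbol), and the probe set of highest mean stood for a gene. After the 30% of genes of lowest mean were left out (limit 7.48), 13957 were fitted with limma 3.58.1 in R 4.3.3 (lmFit, eBayes, no covariates, 2 residual and 2.64 prior degrees of freedom). P-values were two-sided and Benjamini-Hochberg adjusted over all genes fitted, and SEs are moderated. The number of arrays limits the precision. The fit was tested on simulated data. Promoter sequences are from RefSeq (GRCm38.p6).

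The members and lists were chosen with earlier results of these arrays known. Named genes are the members, up to 6 called genes of each pathway list (otherwise the 2 of largest difference), marker genes where a result turns on them, and the 5 nearest in profile to Duox2, Duoxa2 and Nos2. Alternatives changed the filter, normalization, probe set rule, title type as a block, minimum difference, prior and arrays.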

Additional observations from a re-analysis of the deposited data

How the results depend on the processing

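Over all genes, leaving out 1 array at a time moved the number that rose between 34 and 3107, and the number that fell between 3 and 3442, against 1178 and 1515 with all arrays. The low counts come without a wild-type array, when the spread is that of the CFLARs Tg arrays. The high counts come without a CFLARs Tg array, when the spread is that of the wild-type arrays. Among the 9 oxidant genes tested, 3 to 8 rose in these fits, and 4 with all arrays; the count was 5 with title type as a block. The block takes XX-type and XY-type from the titles, and the replicate numbers, given in accession order, coincide with it. Against a minimum log2 difference of 0.5, 53 genes rose and 10 fell, and the 4 oxidant genes were among those that rose. Nos2, Duox2, Duoxa2 and Gpx2 passed under all 8 alternatives that kept every array, with adjusted p-values up to 0.0203. Pxdn ran from -0.13 to 0.0451 when 1 array was left out.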
